A study of Mus musculus with 2 samples.

Results

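The genes described are 10 members of the forkhead family of transcription factors, Foxp1, Foxp2, Foxp4, Foxo1, Foxo3, Foxo6, Foxk1, Foxk2, Foxn3 and Foxj1. They were chosen by symbol from 21829 protein-coding genes, of which 34 others also carry a forkhead symbol. The choice was made with earlier results of these data known, so their values beside those of other genes are descriptive and test nothing. All 10 were found in the annotation. Chromatin accessibility was mapped by DNase-seq, which finds stretches of DNA that the nuclease DNase I cuts often, in cerebellum of 2 male mice aged 36 days. Both came from B6CASTF1/J, a cross between the C57BL/6J and CAST strains, and form 1 group with no treatment, genotype or age to compare. The labels number them as separate biological replicates and yet carry 1 donor entry for both, so the spread between them may be technical. Where a sentence gives a pair of values, replicate 1 comes first and replicate 2 after it, and no test across animals was possible.

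Forkhead factors bind DNA through a winged-helix domain that recognises a short core, here searched as GTAAACA or ATAAACA on either strand. FOXP proteins act mostly as repressors in developing and mature neurons, and Purkinje cells of the cerebellum are known for Foxp2. FOXO proteins leave the nucleus when insulin and growth factor signalling through the kinase Akt phosphorylates them, and otherwise turn on genes of stress resistance, autophagy and cell cycle arrest. FOXK proteins recruit corepressors to genes of autophagy and metabolism, FOXN3 is a repressor of the cell cycle and of metabolic genes, and FOXJ1 drives the genes of motile cilia.

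The sequences below are those the results turn on, read from the RefSeq release of the mm10 assembly on the strand of each gene. They were chosen after their values were seen, because the rule set for sequences, a distal peak of both animals with a forkhead core in a footprint, found 0 peaks. Capitals mark bases inside a footprint, a short stretch protected from cutting, in both animals. Only 30 bases are shown at each Foxj1 site, where a RefSeq transcript model extends over the peak. The X-box label at Foxj1 stands for the loose search form GTNNCC then GGNNAC alone. The last 3 sequences hold a core of the CTCF motif, CCNNNAGNNGGC on either strand, with its centre inside a footprint in both animals. The Foxn3 part shown overlaps a RefSeq exon by 30 bases.
Foxj1 promoter, forkhead site, chr11:116335417-116335446, minus strand: GGAAGCtGTTTATGGGGGCGGGGCGTCGCC
Foxj1 promoter, X-box site, chr11:116335460-116335489, minus strand: ggcccgCGGTCTCCTtggagacgtactggc
Foxn3 internal promoter, chr12:99392041-99392195, minus strand: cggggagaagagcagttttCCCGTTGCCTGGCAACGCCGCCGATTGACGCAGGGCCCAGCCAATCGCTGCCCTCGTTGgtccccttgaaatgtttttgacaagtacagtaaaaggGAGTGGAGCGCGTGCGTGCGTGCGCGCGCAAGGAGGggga
Foxo3 promoter, chr10:42277621-42277900, minus strand: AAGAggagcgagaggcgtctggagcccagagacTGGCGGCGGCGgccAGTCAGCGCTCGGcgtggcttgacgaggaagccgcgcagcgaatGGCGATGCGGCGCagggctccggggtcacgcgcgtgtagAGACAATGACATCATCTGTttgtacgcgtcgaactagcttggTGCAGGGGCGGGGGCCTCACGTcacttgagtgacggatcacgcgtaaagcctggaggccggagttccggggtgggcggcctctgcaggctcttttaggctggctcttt
Foxp1 intron, chr6:99509381-99509560, minus strand: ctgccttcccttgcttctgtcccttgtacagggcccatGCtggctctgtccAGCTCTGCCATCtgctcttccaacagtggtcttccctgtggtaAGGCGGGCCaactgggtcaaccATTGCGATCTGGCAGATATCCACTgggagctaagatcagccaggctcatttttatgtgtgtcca
Foxp4 downstream, chr17:47864601-47864780, minus strand: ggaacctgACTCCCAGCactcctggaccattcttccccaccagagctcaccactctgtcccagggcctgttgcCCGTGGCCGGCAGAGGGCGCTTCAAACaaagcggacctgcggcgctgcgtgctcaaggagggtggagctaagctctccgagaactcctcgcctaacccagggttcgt
Foxo1 upstream, chr3:52262521-52262680, plus strand: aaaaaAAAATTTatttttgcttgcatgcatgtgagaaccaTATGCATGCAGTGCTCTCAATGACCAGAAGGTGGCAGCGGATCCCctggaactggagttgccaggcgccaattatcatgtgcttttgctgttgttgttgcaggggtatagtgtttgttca
Foxk1 intron, chr5:142448241-142448440, plus strand: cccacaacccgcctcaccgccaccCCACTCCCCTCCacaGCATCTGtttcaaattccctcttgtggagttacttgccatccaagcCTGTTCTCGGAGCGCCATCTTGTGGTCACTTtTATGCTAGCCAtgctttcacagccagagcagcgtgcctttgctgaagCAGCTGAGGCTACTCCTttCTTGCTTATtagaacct

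The promoters of all 10 genes were accessible in both animals, but their peak heights differed widely. Among accessible genes they ran from percentiles 15.6 and 11.8 at Foxp1 to 97.8 and 98.7 at Foxn3. Windows reached 1000 bp to either side of each protein-coding transcript start in the annotation. A peak in such a window was found at 10 of the 10 genes in replicate 1, where 67.0% of all protein-coding genes had one, and at 10 in replicate 2, where 63.5% did. Over the genome, 62.9% of genes were accessible by this measure in replicates 1 and 2 alike. Accessibility rose with promoter CpG content, by which genes were split into 5 classes, class 5 the richest. The content was taken over the windows of all annotated protein-coding starts of a gene together. At Foxp1, Foxp2, Foxo3 and Foxn3 these include starts without a peak. In class 5, 4252 and 4152 of 4366 genes were accessible, and in class 4, 4171 and 4041 of 4366. Of the 10 genes, 6 stood in class 5, 3 in class 4 and 1 in class 3, where 3917 and 3734 of 4365 were accessible. The height of a peak is the authors' own signal value, whose step size differs between the libraries, so ranks within an animal are compared rather than heights between animals. In replicate 1 the median of the 10 highest promoter peaks was 10.6, beside 9.10 over all accessible genes, and in replicate 2 it was 5.66 beside 6.65.

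With windows of 1000 bp, Foxn3 and Foxo3 had the highest promoter peaks and the 3 Foxp genes the lowest, in the same order in both animals. The lead of Foxn3 and Foxo3 rested on peaks about 1 kb from the start. With windows of 500 bp Foxk1 and Foxk2 led in both animals, Foxn3 had 6.33 and 4.30, and Foxo3 had 10.1 and 7.22. The median rank of the 10 genes among accessible genes was percentile 49.7 ± 8.16 (SD, n = 2), 55.5 in replicate 1 and 43.9 in replicate 2. Among accessible genes of the same class of promoter CpG content, of 5 classes, the medians were 44.6 and 33.4, and 6 of the 10 genes stood in the class richest in CpG and 3 in the next. With the 1000 bp windows Foxn3, Foxo3, Foxk1 and Foxk2 were above the median height in both animals, and Foxp1, Foxp2, Foxp4 and Foxo6 below it in both. In a mixed tissue, a low peak from few cells with open chromatin and one from less cutting per cell cannot be told apart. The highest promoter peak lay at overlapping positions in both animals for all 10 genes, and no window of another protein-coding gene held it.

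**Figure D1:**
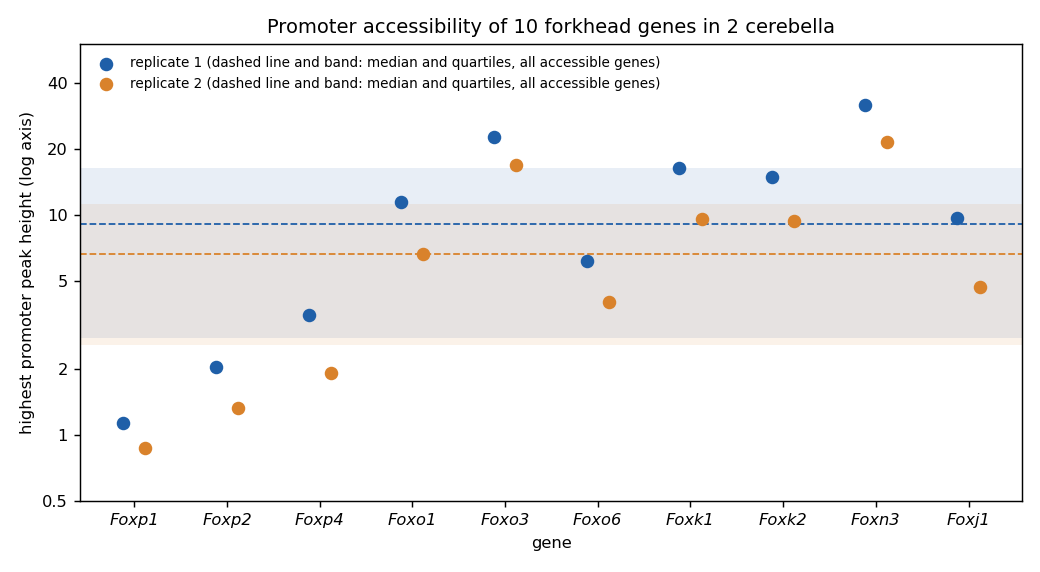
Height of the highest promoter peak (log axis) of each of the 10 genes in replicate 1 (blue) and replicate 2 (orange), with the median (dashed) and the quartiles (bands) over the 14626 and 13869 accessible protein-coding genes of each animal. Foxp1 and Foxp2 lie below the lower quartiles of 2.74 and 2.56, and Foxo3 and Foxn3, through peaks about 1 kb from the start, lie above the upper quartiles of 16.4 and 11.2 in both animals.

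Many annotated starts of these genes had no accessible chromatin. The 10 genes have 43 distinct protein-coding starts, which joined into 23 groups where windows overlapped. A peak was present at 12 groups in both animals and at 11 in neither, and no group had a peak in 1 animal alone. Over all genes, 49.4% of start groups had a peak in both animals. None of the 11 closed groups held a stretch at a false discovery rate below 0.05 in either animal. Those stretches come from the same libraries as the peaks, so this is no separate evidence. Foxp1, Foxp2, Foxo3 and Foxn3, 4 of the genes, have more than 1 group each and 17 groups in all. Foxp1 and Foxn3 had peaks at more than 1 group, as did 20.1% of the 6428 genes with several groups.

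Foxp1 encodes a transcriptional repressor that neuronal and lymphoid development need. Its annotated gene spans 597 kb on chromosome 6, from 98925338 to 99522721 on the minus strand. Of its 8 start groups only the most upstream and the most downstream were accessible, the latter 492 kb along the gene and barely so. At the upstream group the highest peak had a height of 1.13 in replicate 1 and 0.869 in replicate 2, percentiles 15.6 and 11.8. At the downstream group heights were 0.390 and 0.336, and that group had no peak in the authors' smaller list. The Foxp1 promoter was low but wide. Peaks covered 63.8% and 65.4% of the window of its upstream group, at percentiles 99.6 and 99.5 of accessible start groups, whose medians were 18.6% and 17.7%. The highest signal near the 5′ end lay further upstream. A peak of 4.36 and 3.43 stood 1818 bp before the most upstream protein-coding start of GENCODE, beside one of 2.87 and 2.60 that holds a RefSeq start at 99522741. With RefSeq starts in place of GENCODE starts, the Foxp1 promoter ranked at percentiles 31.1 and 30.2, and 2 of 13 start groups were accessible.

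Foxp2, the best known forkhead gene of Purkinje cells, had an accessible promoter at the first of its 3 start groups and none at the others, 283 and 296 kb downstream. The gene lies on chromosome 6 from 14901349 to 15441977 on the plus strand. Its highest promoter peak had a height of 2.03 in replicate 1 and 1.32 in replicate 2, percentiles 21.6 and 16.5. That peak stood 499 bp before the start in replicate 1 and 599 bp in replicate 2. The highest peaks just at the start were lower still, at 0.889 and 0.514. Foxp2 peaks covered 38.1% and 31.9% of the window.

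Foxp4 encodes a FOXP protein of broader expression and lies on chromosome 17 from 47867133 to 47924645 on the minus strand. All its 4 starts fell into 1 group. The highest promoter peak had a height of 3.49 in replicate 1 and 1.90 in replicate 2. These are percentiles 28.2 and 21, so that all 3 Foxp promoters ranked below the median in both animals. Peaks covered 54.3% and 34.1% of its window. Across the genome, 175 start groups had at least 50% of the window in peaks in both animals, with median heights of 5.75 and 4.07. The Foxp1 upstream group was among 24 of them with a height below 2 in both animals.

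**Figure D2:**
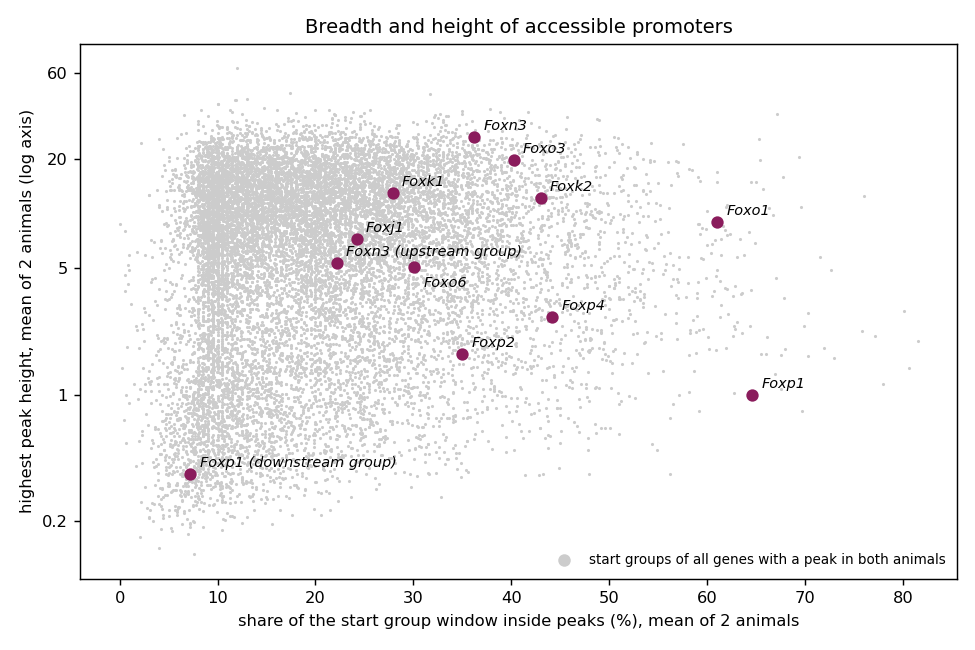
Share of the window of a start group that lies inside peaks (horizontal, percent) against the highest peak height (vertical, log axis), both as means of the 2 animals, for the 12 accessible start groups of the 10 genes (purple) over the 15253 accessible groups of all genes (grey). The Foxp1 upstream group stands at the far right at a low height, while Foxo1 reaches a similar breadth with a height of 11.4 and 6.65.

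Foxo1, Foxo3 and Foxo6, the FOXO genes described, differed in promoter height, with Foxo6 lowest in both animals. Foxo1, a regulator of metabolism, lies on chromosome 3 from 52268336 to 52353221 on the plus strand. Its highest promoter peak covered the start and had a height of 11.4 in replicate 1 and 6.65 in replicate 2, percentiles 58.6 and 50. Flanking peaks brought the covered share of its window to 55.8% and 66.3%, at percentiles 98.8 and 99.6 of accessible groups. A forkhead core, GTAAACA, stood in a Foxo1 promoter peak at 52268064 to 52268070 and touched no footprint in either animal. Foxo6, a FOXO gene expressed in brain, lies on chromosome 4 from 120267079 to 120287349 on the minus strand. Its highest promoter peak, at 6.15 and 4.0, stood 561 and 581 bp before the start, while the peak nearest to the start, which held it in replicate 2 alone, had 0.677 and 0.484.

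Foxo3, a FOXO gene of stress resistance and neural stem cells, had the second highest promoter of the 10 genes with windows of 1000 bp. The gene lies on chromosome 10 from 42181841 to 42276755 on the minus strand. Its promoter region held 3 separate strong peaks, and the strongest did not lie at the start. The peak at the start had heights of 10.1 in replicate 1 and 7.22 in replicate 2. The strongest, 1005 and 1075 bp upstream by its midpoint, reached 22.6 and 16.9, percentiles 88.8 and 93.5, and is printed above. A further peak, 1415 bp upstream, stood at 16.4 and 10.1, just outside the window. In replicate 2 the strongest peak fell outside the window around the RefSeq start at 42276695, and Foxo3 then had a height of 7.22 and a percentile of 53, below Foxk1 (9.54) and Foxk2 (9.38). The peak at the Foxo3 start was below the highest peaks of Foxk1 and Foxk2 in both animals. In the printed Foxo3 sequence 82 of 280 bases lay in a footprint in both animals. Among them were an E-box, CAGATG on the reverse strand, at positions 143 to 148 and an SP site, GGGCGG, at positions 178 to 183, counted from the 5′ end. The E-box occurred in 12.7% and the SP site in 61.2% of 1280 promoter peaks of similar width. The second start group of Foxo3, 18.4 kb downstream, had no peak.

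**Figure D3:**
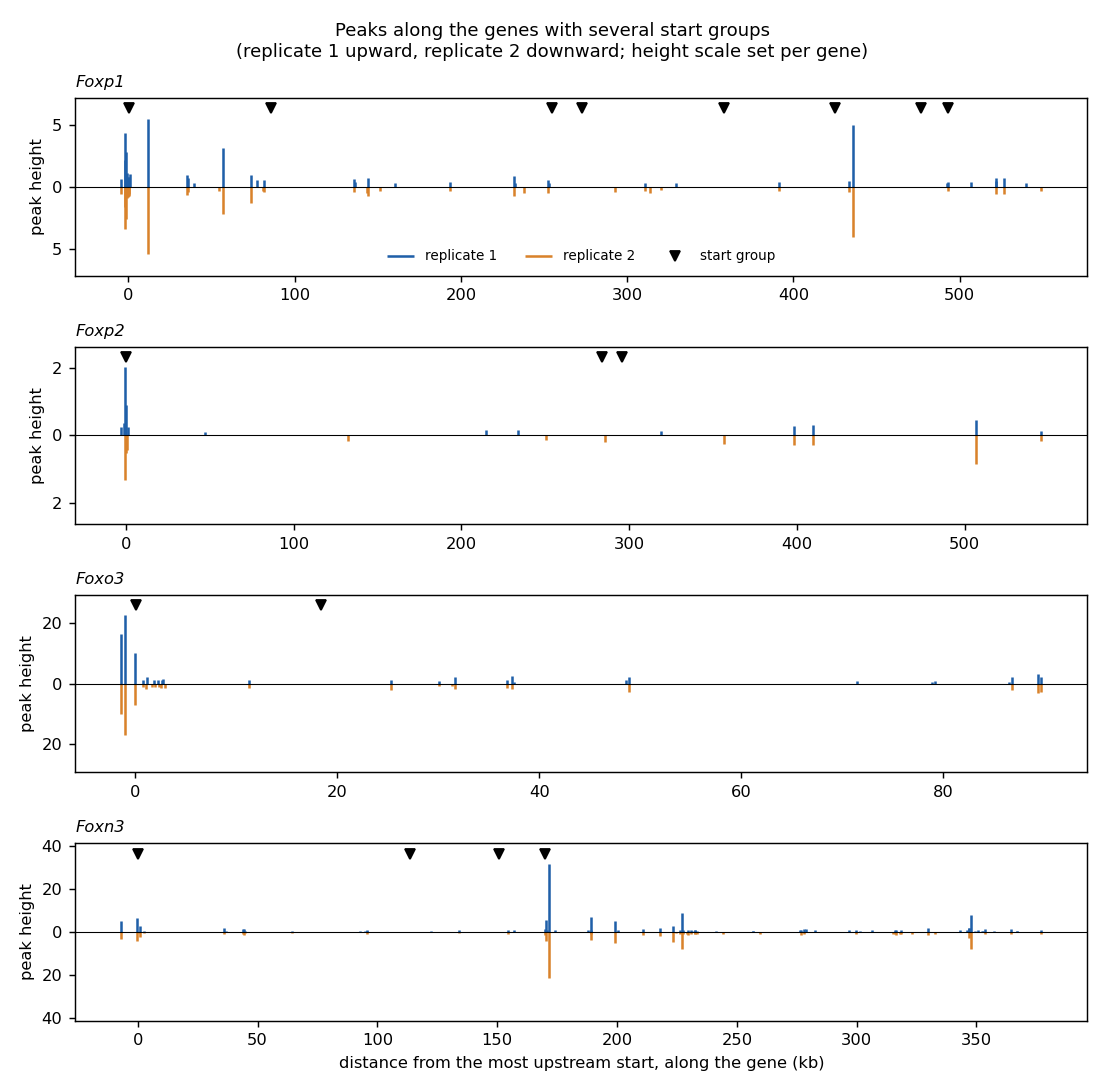
Peaks along Foxp1, Foxp2, Foxo3 and Foxn3, the genes with more than 1 start group, by distance from the most upstream start (kb); line length is peak height, replicate 1 upward and replicate 2 downward, on a scale set per gene, and triangles mark start groups. Most triangles have no line beneath them, and the tallest Foxn3 line stands at the fourth start group, 170 kb along the gene.

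Foxk1 and Foxk2, which encode repressors that work with the Sin3 complex, ranked next to each other in both animals. Foxk1 lies on chromosome 5 from 142401497 to 142462011 and Foxk2 on chromosome 11 from 121259990 to 121309896, both on the plus strand. The highest Foxk1 peak had a height of 16.4 in replicate 1 and 9.54 in replicate 2, percentiles 75.2 and 66.6. The highest Foxk2 peak had a height of 14.9 and 9.38, percentiles 70.5 and 65.8. In each gene that peak covered the start, with the same boundaries in both animals.

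Foxn3 had the highest promoter peak of the 10 genes with windows of 1000 bp, in the window of an internal start. The gene lies on chromosome 12 from 99190078 to 99563582 on the minus strand, with 4 start groups. At the upstream group the highest peak was 6.33 in replicate 1 and 4.30 in replicate 2, a window in which the non-coding gene Gm26839 also starts. The next 2 groups had none. At the fourth group, 170 kb along the gene, the highest peak reached 31.6 and 21.4, percentiles 97.8 and 98.7. Its midpoint lay 942 bp inside the gene from the start at 99393072, in an intron of the GENCODE models, while the peak over that start had heights of 5.52 and 4.25. The strong Foxn3 peak had the same boundaries in both animals, and 106 of its 180 bases lay in a footprint in both. In the printed part, the footprint at positions 20 to 78 held GTTGCCTGGCAAC at positions 23 to 35. This is an inverted pair of GTNNCC and GGNNAC with up to 3 bases between, a loose form of the X-box that RFX factors bind. It includes the RFX sequence GTTGCCA on the reverse strand at positions 29 to 35. A CCAAT box at positions 60 to 64 shared that footprint. An NRF1 sequence, GCGCANGC on the reverse strand, lay in another at positions 133 to 140. CCAAT occurred in 24.6% and the NRF1 sequence in 13.5% of promoter peaks of similar width. Among 4698 promoter peaks of similar width in replicate 1, 4.04% held such an inverted pair and 2.11% held it in a footprint.

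Foxj1, the motile cilia factor, had a promoter of middle height at its 1 start. The gene lies on chromosome 11 from 116330704 to 116335399 on the minus strand. The highest promoter peak covered the start and had a height of 9.73 in replicate 1 and 4.68 in replicate 2, percentiles 52.4 and 37.9. That peak held the only forkhead core of the 10 genes with its centre in a footprint in both animals. The core is TGTTTAT at positions 7 to 13 of the printed site, which is ATAAACA on the reverse strand. A footprint of both animals began at position 8, inside the core, and also held an SP site, GGGCGG, at positions 16 to 21. Of 2659 promoter peaks of similar width, 2.26% held a forkhead core and 0.376% held one in a footprint. The second Foxj1 site printed holds an inverted pair of GTNNCC and GGNNAC, GTCTCCTTGGAGAC, at positions 9 to 22. It matches this loose form only, and the site does not hold the RFX sequence GTTGCCA. A footprint at positions 7 to 17 in replicate 1 and 7 to 15 in replicate 2 held the first bases of the pair. Such a pair occurred in 2.78% of those peaks.

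Few forkhead cores in accessible chromatin had their centre in a footprint, at these genes and over the genome. The gene bodies with 10 kb on both sides held 200 peaks in replicate 1 and 163 in replicate 2. Counted peak by peak they held 14 and 15 forkhead cores, of which overlapping peaks share 1 in each animal, leaving 13 and 14 distinct cores and 16 in all. The core counted above at Foxj1 was the 1 with its centre in a footprint, or 7.14% and 6.67% of the peak-by-peak counts. Over all peaks, counted the same way, the shares were 6.53% of 4792 cores and 5.11% of 4928. Footprints covered 17.1% and 14.5% of the bases of all peaks. Besides the Foxo1 site, cores without a footprinted centre stood in promoter peaks of Foxp1, Foxo3 and Foxn3, in introns of Foxp1, Foxp2, Foxp4, Foxo3, Foxk1 and Foxn3, and upstream of Foxp1.

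Distal peaks, those in the gene body or within 10 kb of it that touch no promoter window, were most numerous at Foxn3. It had 70 in replicate 1 and 44 in replicate 2, Foxp1 had 31 and 30, and Foxo3 had 21 and 17. Foxp2 had 10 and 8, Foxp4 and Foxo1 7 and 8 each, Foxk1 7 and 6, Foxo6 and Foxj1 3 and 2 each, and Foxk2 1 and 0. Per 10 kb the medians over the 10 genes were 0.807 and 0.754, beside 0.398 and 0.327 over all genes and 0.455 and 0.399 over the 3172 genes whose territory exceeds 100 kb. In both animals 8 of the 10 genes were above the median density of all genes, and Foxp2 and Foxk2 were below it in both.

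Foxo3 and Foxn3 had dense distal peaks and Foxp2 had few and weak ones for its length. Foxo3 had 1.83 and 1.48 distal peaks per 10 kb, percentiles 96.8 and 97.8 among genes with long territories. Foxn3 had 1.78 and 1.12 per 10 kb, percentiles 96.5 and 92.7. Foxp2, with a territory of 561 kb, had 0.178 and 0.143 per 10 kb, percentiles 16.3 and 15.3. The median height of its distal peaks was 0.203 and 0.232, beside 0.640 and 0.770 over all distal peaks. The highest Foxp2 distal peak, 507 kb from the first start, reached only 0.466 and 0.849. Foxp1, of similar length, had 0.502 and 0.486 per 10 kb and 2 intronic peaks above 4 in both animals.

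**Figure D4:**
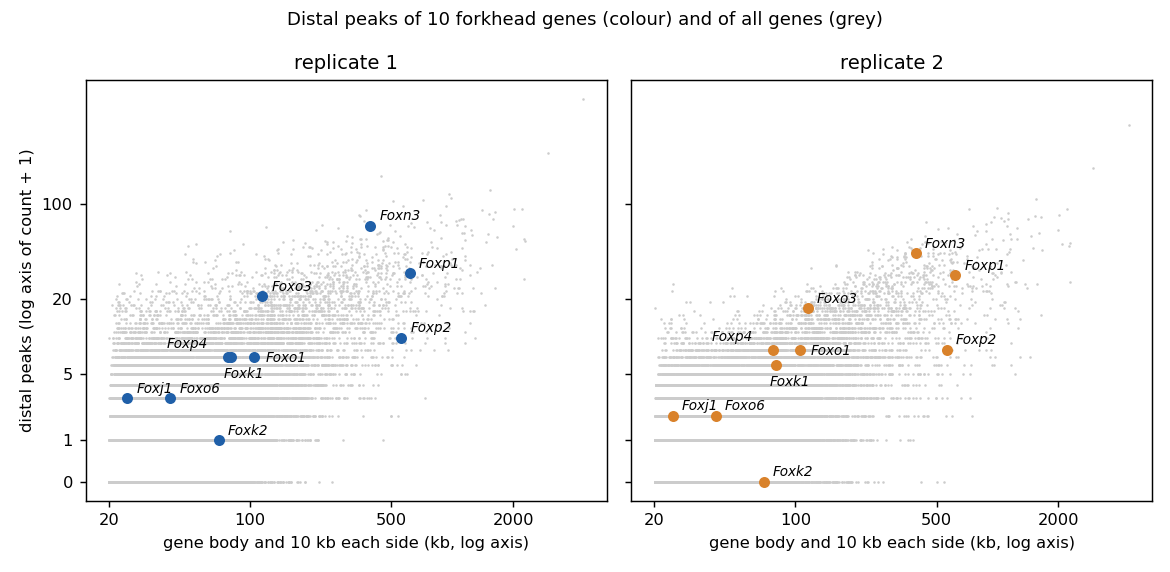
Number of distal peaks (vertical, log axis of the count + 1) against the length of the gene body with 10 kb on both sides (horizontal, log axis, kb) for all protein-coding genes (grey) and the 10 genes (colour), replicate 1 left and replicate 2 right. Foxn3 and Foxo3 lie in the upper part of the cloud for their length, while Foxp2 with 10 and 8 peaks and Foxk2 with 1 and 0 lie low.

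The strongest distal peaks of Foxp1 and Foxn3 stood high among all peaks of each animal, at percentiles 88.1 and 89.6 for Foxp1 and 92.4 and 93.7 for Foxn3. At Foxp1 the intronic peak printed above, 11.5 kb from the nearest start, had heights of 5.54 in replicate 1 and 5.41 in replicate 2. It held an E-box, CATCTG, which is CAGATG on the reverse strand, at positions 60 to 65 with its centre in a footprint in both animals, a sequence present in 25.6% of 21204 distal peaks of similar width. Another Foxp1 peak, 436 kb along the gene, had heights of 5.06 and 4.06. At Foxn3 the highest distal peak, 56.6 kb from the nearest start, had heights of 8.61 and 7.96, and another, 348 kb along the gene, 8.03 and 7.77.

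At Foxp4, Foxo1 and Foxk1 the highest distal peak held a CTCF core with its centre in a footprint in both animals. CTCF is a zinc finger protein that marks boundaries and anchors of chromatin loops. The Foxp4 peak lay downstream of the gene and had heights of 6.93 and 2.95. The Foxo1 peak lay 5736 bp upstream of the start in replicate 1 and had heights of 5.02 and 2.60. The Foxk1 peak lay in an intron 46.8 kb from the start and had heights of 7.38 and 3.87. Of distal peaks of the same widths, 20.1%, 20.7% and 16.6% held such a core, and 16.8%, 17.1% and 12.7% held it in a footprint. Those shares are over peaks of any height, while the peaks described were picked as the highest of their genes. The CTCF sequence was added to the search after these regions were seen. Over all distal peaks of the 10 genes, 5.62% and 5.60% held the core, beside 14.6% and 15.8% of all distal peaks.

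The highest distal peak of all 10 genes was that of Foxo3, described above at 1415 bp from the start, with heights of 16.4 and 10.1. At Foxo6 an intronic peak 4.45 kb from the start had heights of 2.09 and 1.67, and at Foxj1 an intronic peak 2.83 kb from the start had 0.845 and 0.731. The only distal peak of Foxk2, at 0.461, was found in replicate 1 alone.

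Peaks at these genes were shared between the animals at shares close to those of all peaks. Of the 200 peaks of replicate 1, 65.5% overlapped a peak of replicate 2, beside 65.8% of all peaks, and of the 163 of replicate 2, 81.6% overlapped one of replicate 1, beside 80.4%. Shared peaks had median heights of 1.23 and 1.10 and those of 1 animal 0.526 and 0.479. No peak of 1 animal alone was higher than 1.32. A footprint was present in 74.5% and 68.7% of the peaks, beside 78.4% and 72.5% of all peaks. At Foxp2 it was 38.5% of 13 peaks and 36.4% of 11.

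Of the 34 other forkhead genes, 15 had a peak in replicates 1 and 2, or 44.1% beside 62.9% of all genes, 5 in replicate 1 alone and 14 in neither. Most of the 34 stood in CpG classes 4 and 5, where 4171 and 4252 of 4366 genes were accessible in replicate 1. Foxn2 (18.6 and 9.67), Foxj3 (15.5 and 8.81), Foxa3 (13.5 and 10.8) and Foxp3 (12.9 and 10.8), the factor of regulatory T cells, were highest, followed by Foxo4, Foxm1 and Foxj2. The highest peaks of Foxa3, Foxp3, Foxj3 and Foxm1 also lay in a window of another gene, Sympk, Ppp1r3f, Frg2f1 and Rhno1. Foxs1 had heights of 2.76 and 1.37, and Foxd2 had 1.89 and 0.918. Foxa1, Foxc1, Foxc2, Foxd3, Foxi2 and Foxi3 had peaks of at most 1.06. Peaks of Foxb2, Foxd1, Foxe1, Foxf1 and Foxl2 were found in replicate 1 alone and did not exceed 0.634.

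**Figure D5:**
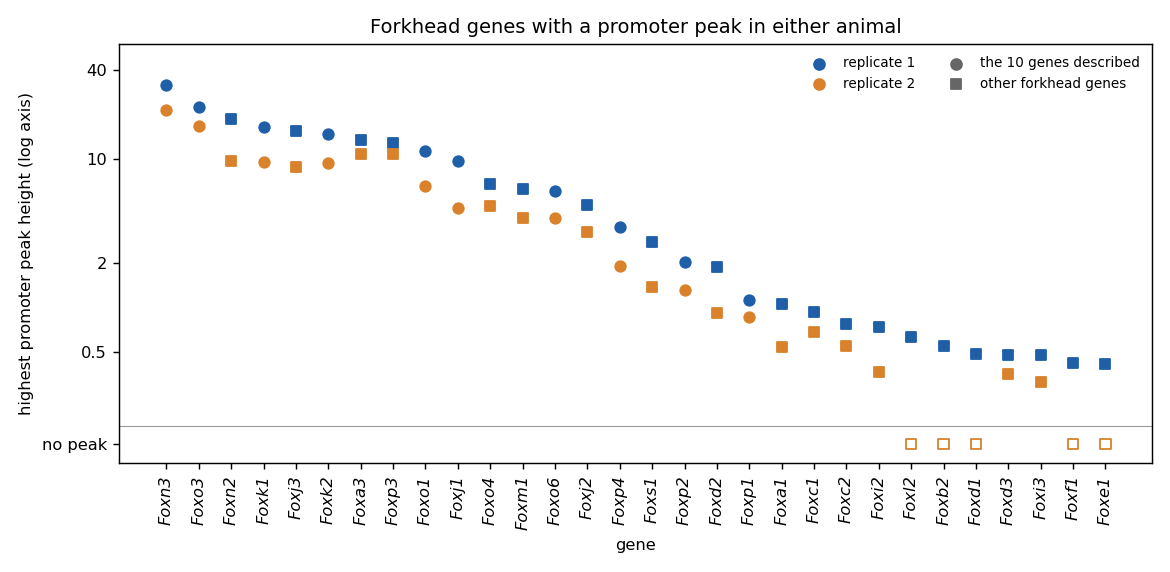
Height of the highest promoter peak (log axis) of each forkhead gene with a peak in either animal, replicate 1 in blue and replicate 2 in orange, circles for the 10 genes described and squares for the others, open squares where an animal had no peak. With windows of 1000 bp Foxn3 and Foxo3 lead the family, through peaks about 1 kb from their starts, and 5 other genes have a peak in replicate 1 alone.

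Genes that act with the FOXO factors had accessible promoters. All 12 genes of insulin and growth factor signalling upstream of FOXO were accessible at the promoter in both animals, beside 62.9% of all genes, with median heights of 18.4 and 11.3. Pdpk1, a kinase that activates Akt (24.0 and 14.4), the growth factor receptor gene Igf1r (22.8 and 15.4) and the kinase gene Akt2 (23.5 and 14.7) were highest by the mean of both animals, the measure used for each list here. All 11 genes of FOXO cofactors and modifiers had a promoter peak in both animals too, with Ywhaz, which encodes an adaptor that holds phosphorylated FOXO in the cytoplasm (24.0 and 17.8), Mdm2 (25.4 and 11.1) and Ywhag (22.4 and 12.3) highest by that mean, although in replicate 2 Mdm2 stood below the list's median of 11.7. Of 20 known FOXO targets, 17 had a promoter peak in both animals, or 85%, led by Sod2, mitochondrial superoxide dismutase (30.2 and 16.4), Sesn1 (26.3 and 15) and Sesn3 (22.3 and 15). The 3 without a peak were G6pc and Pck1, enzymes of glucose production in liver, and Trim63, a ubiquitin ligase of muscle. These 3 genes and Akt2 stood in CpG class 2, and all other genes of the FOXO lists in classes 3 to 5. In replicate 1, 1958 of 4366 genes of class 2 were accessible and 3917 of 4365 of class 3. In classes 4 and 5 it was 4171 and 4252 of 4366.

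The lists of FOXP and FOXK partners are short. All 6 FOXP corepressor genes had a peak in both animals, beside 62.9% of all genes, highest at Gatad2b (25.5 and 18.6) and Hdac1 (27.7 and 14.6) of the NuRD complex and at Ctbp1 (13.6 and 8.78). All 7 FOXK partner genes had one, highest at Sap30 (21.7 and 15) and Sin3a (20.1 and 15.5) of the Sin3 complex and at Bap1 (16.4 and 11.6). Every gene of both lists stood in CpG classes 3 to 5, where most genes were accessible.

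In the motile cilia list of FOXJ1, 16 of the 20 annotated genes had an accessible promoter in both animals, 2 in replicate 2 alone and 2 in neither. That is 80% of the list, beside 62.9% of all genes. The medians, 4.26 and 2.35, were below those of all accessible genes. Rfx2, a partner of FOXJ1 (27.5 and 15.7), Rsph1 (16.1 and 8.60) and Rfx3 (14.1 and 8.75) were highest, and Dnah5, an outer dynein arm gene, and Spag17 had none. Ciliated cells line the fourth ventricle and cover the choroid plexus. Of 4 choroid plexus markers, Otx2 had heights of 1.65 and 1.88, and Ttr, Folr1 and Kcne2 had no promoter peak. Those without a peak stood in CpG class 2, where 1958 of 4366 genes were accessible in replicate 1. The part of ciliated cells in the Foxj1 peak was not tested.

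The label of cerebellum was checked against marker genes of its cell types. All 9 granule cell markers had a promoter peak in both animals, led by Cbln3 (27.9 and 17.1). The share over all genes was 62.9%, though every granule cell marker but Gabra6 stood in CpG classes 3 to 5. Of 10 Purkinje cell markers 7 had a promoter peak in both animals, near the share of 62.9%. Itpr1 (16 and 12.5) led them, Calb1 (1.26 and 1.02) and Car8 (0.640 and 0.405) were lowest, and Pcp2, Ppp1r17 and Skor2 had none. Of the others, 4 of 5 astrocyte, 4 of 5 oligodendrocyte, 2 of 4 endothelial and 0 of 5 microglial markers had one in both animals. Every microglial marker stood in CpG class 1 or 2, as did Mag, Mog, Aqp4, Gfap, Erg and Pecam1. In replicate 1, 328 of 4366 genes of class 1 and 1958 of 4366 of class 2 were accessible. The other astrocyte, oligodendrocyte and endothelial markers stood in classes 3 to 5, and the share of these cells was not tested. Median heights of the markers with a peak were 13.5 and 9.58 for granule cells and 7.96 and 5.93 for Purkinje cells. They were only 0.553 and 0.686 for astrocytes, 0.981 and 1.03 for oligodendrocytes and 0.729 and 0.499 for endothelium. Of the Purkinje cell markers without a peak, Pcp2 stood in CpG class 1, Ppp1r17 in class 2 and Skor2 in class 5. The part of the Purkinje cell share in the low Foxp2 peaks was not tested. The larger lists held 140127 and 114404 peaks, the number of sequenced reads is unknown, and heights moved in steps of 0.00542 and 0.00988.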

How the data were processed

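DNase-seq of cerebellum from 2 animals, 1 group, was analysed from files the authors deposited. Per the readme texts deposited with the files, coordinates are on mm10 and each animal's files come from its own library. The aligner is not given in the sources used here, nor is the peak or footprint caller. The deposited peak lists give a signal, the height of each peak, and the larger list (140127 and 114404 peaks) was the main one. The footprint lists carry a p-value type of entry, 0.01 in each row as deposited, and were used through positions only. The deposited false discovery rates, another p-value type, list stretches below 0.05, which were merged with bedtools 2.31.1.

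Promoter windows covered 1000 bp on both sides of protein-coding starts of GENCODE M21. Distal peaks had their midpoint in the gene body or within 10 kb and touched no promoter window. Percentiles count tied genes for their middle rank. Motif letters were searched on both strands of the genome. Python 3.11.15, numpy 2.4.6 and pysam 0.24.0 were used, and interval and motif functions were tested on simulated data.

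The members and lists were chosen with earlier results of these data known, and the X-box, CCAAT and CTCF sequences were added after the printed regions were seen. All 10 genes are named, then other forkhead genes with a promoter peak, and up to 3 genes of each list with the highest mean height or with no peak. One listed cilia gene was not matched by symbol. Reads of the hybrid were compared with a C57BL/6J reference, and the effect of this on CAST alleles was not tested. The alternatives used other windows, peak lists, flanks, overlaps and annotations, and left out each animal.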

Additional observations from a re-analysis of the deposited data

How the results depend on the processing

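Of 39 alternatives, 27 left a result within its limit, which was 1.5 times for counts, 1 SD between animals for medians and the footprint share, and the 95% binomial interval (Wilson) for the shared share. A promoter peak in both animals was found at 10 genes under every alternative but peaks above the median height of their list, which left 9, without Foxp1. Leaving out either animal gave 10 genes and 12 start groups, counts that it could not lower. The gene count was already at its top of 10, and the footprint share is a mean of the 2 animals. For both, leaving out an animal could not pass the limit, so the 27 include outcomes fixed in advance. For the medians the limit was the SD of the same values that leaving out each animal gave, so staying within it says little. RefSeq starts, an alternative added after the data were seen, gave 10 genes, 14 of 28 start groups and a median percentile of 49.5.

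The median of distal peaks per 10 kb, 0.761 over each gene's mean of the animals, was 0.583 with the smaller peak list, 0.391 with peaks above the median height, 0.974 in the gene body only and 0.873 with 50 kb on both sides. The same settings gave 0.204, 0.104, 0.154 and 0.416 over all genes, and 0.248, 0.142, 0.422 and 0.435 over genes with territories above 100 kb. Leaving out 1 animal gave 0.754 to 0.807. The median height percentile, 49.7, was 92.0 when ranked among all peaks and 41.3 with windows of 500 bp, and 43.9 to 55.5 with 1 animal left out, so its side of the median of accessible genes differed between the animals. The shared percentage of replicate 1 peaks, 65.5, was 58 when each peak had to be overlapped over at least 50% of its length, and 72.3 with the same number of peaks in both animals. The percentage of forkhead cores in footprints, 6.90, was 13.6 for any base of the core, 0 for the whole core and 8.71 with the smaller peak list, and 6.67 to 7.14 with 1 animal left out. It rests on 1 core of 16 distinct ones, at Foxj1, and counts a core in overlapping peaks once per peak.

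No paired analysis was possible because both animals form 1 group. The number of reads is unknown, so no interval for heights was given, and a missing peak means not detectable at this depth. Results rest on 2 animals, and RNA was not measured.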
